A study of Mus musculus with 7 samples.

Results

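The ligand gene Fgf4, the receptor genes Fgfr1 and Fgfr2, the ETS factor genes Etv4 and Etv5, the phosphatase gene Dusp6 and the inhibitor genes Spry2, Spry4, Spred1 and Spred2 were followed by RNA sequencing while mouse embryonic stem cells differentiated. They were taken by symbol as members of the FGF-ERK pathway, and all 10 were listed among the 12071 gene symbols of the table and passed the filter on low reads. Fgfr1 had 3 transcript rows and Fgfr2 had 2, of which the row with the highest mean was used. The cells, of the mouse embryonic stem line CCE, were kept on gelatin in medium with serum and without feeder cells. The libraries of days 1 to 6 came from cells given 5 µM retinoic acid after LIF, the cytokine that keeps such cells undifferentiated, had been withdrawn. The day 0 library came from stem cells in the LIF medium, labelled as treated with DMSO. Each day had 1 library. Nothing in the labels tells if each day was its own culture. LIF withdrawal, retinoic acid and days in culture changed together and cannot be told apart.

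Fibroblast growth factors bind receptor tyrosine kinases together with heparan sulfate and start the Ras-Raf-MEK-ERK kinase cascade. Undifferentiated mouse embryonic stem cells make Fgf4 under the control of Oct4 and Sox2, and the ERK signal it gives readies them to leave the naive state; in the blastocyst, FGF4 from the epiblast directs neighbouring cells to primitive endoderm. Active ERK turns on the genes of the ETS factors Etv4 and Etv5 and, as negative feedback, those of the ERK phosphatase Dusp6 and of the Sprouty and Spred inhibitors. Only RNA was measured here, so ERK activity itself is not known.

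The libraries held between 7194325 reads on day 6 and 17923852 reads on day 4 over the listed transcripts. All 8 embryonic stem cell markers had at least 1468 reads in the day 0 library. Values are log2 scaled reads, meaning whole reads per transcript times 1 factor per library, not divided by transcript length. The day 6 library stood apart. Its difference from day 5 had a Spearman rho of -0.70 with transcript length across genes, against -0.014 to 0.19 for the other daily steps, and the median of all 12058 symbols tested was -1.06 log2 units. Among the 6476 symbols with transcripts of 2089 to 5216 nt, the span of the members, that median was -1.51. The members had a median of -2.58 in this step, and the part of library quality in it was not tested. Results are therefore given over days 0 to 5, with the 7 libraries beside them.

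Most of these genes declined. Of the 10, 8 fell and 0 rose over days 0 to 5 in a straight-line fit on day (limma, Benjamini-Hochberg adjusted p under 0.05 over 12058 symbols). At an unadjusted p under 0.05 the limma counts were 8 and 1, and limma with voom weights also called 8 falling and 0 rising. Fgfr1 and Fgfr2 were not called. Over all symbols 22.1% were called falling and 26% rising. The median slope of the members was -0.76 log2 units per day, against 0.013 over all symbols tested. Over all 7 libraries limma called 6 of the 10 falling and 0 rising (9 and 0 at an unadjusted p under 0.05), against 5.21% falling and 2.56% rising over all symbols. Fgf4 and Spred2 were the members no longer called. With 1 library a day these p-values measure the scatter of the days around a line, not the spread between cultures.

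The members left their day 0 level at different times. At least 2-fold below day 0 stood 2 of the 10 on day 1 (Fgf4 and Spry2; 3.99% of all symbols), 5 on day 2 (8.53% of all symbols), 7 on day 3 (12.6% of all symbols) and 8 on days 4 and 5 (15.2% and 15.6% of all symbols). Etv4, Etv5 and Spry4 were the additions of day 2, Dusp6 and Spred1 those of day 3, and Spred2 that of day 4. At least 2-fold above day 0 stood Fgfr2 alone on days 1, 3, 4 and 5 (9.15%, 21.1%, 24.8% and 25.9% of all symbols), joined by Fgfr1 on day 2 (20.2% of all symbols). On day 6, 9 of the 10 stood at least 2-fold lower (44.4% of all symbols) and 0 at least 2-fold higher (20.8%).

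Up to day 5, the steps between neighbouring days with the most members at least 2-fold lower were those to day 2 and day 3. From day 1 to day 2, 5 of the 10 went at least 2-fold lower (4.49% of all symbols) and 1, Fgfr2, higher (11.2%). From day 2 to day 3, 6 went lower (4.24%) and 0 higher (4.29%); these were Fgf4, Fgfr1, Etv4, Etv5, Dusp6 and Spry4. From day 3 to day 4, Dusp6 and Spry4 went lower (1.25%), and Fgf4, with 6 reads against 1, higher (1.91%). From day 4 to day 5, Fgf4 alone, with 1 read against 6, went lower (0.431%) and 0 higher (1.27%). The counting interval of that Fgf4 step, -7.99 to 0.58, included 0. From day 5 to day 6, 8 went lower (51.1%) and Fgf4, with 2 reads against 1, higher (17.4%).

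**Figure D1:**
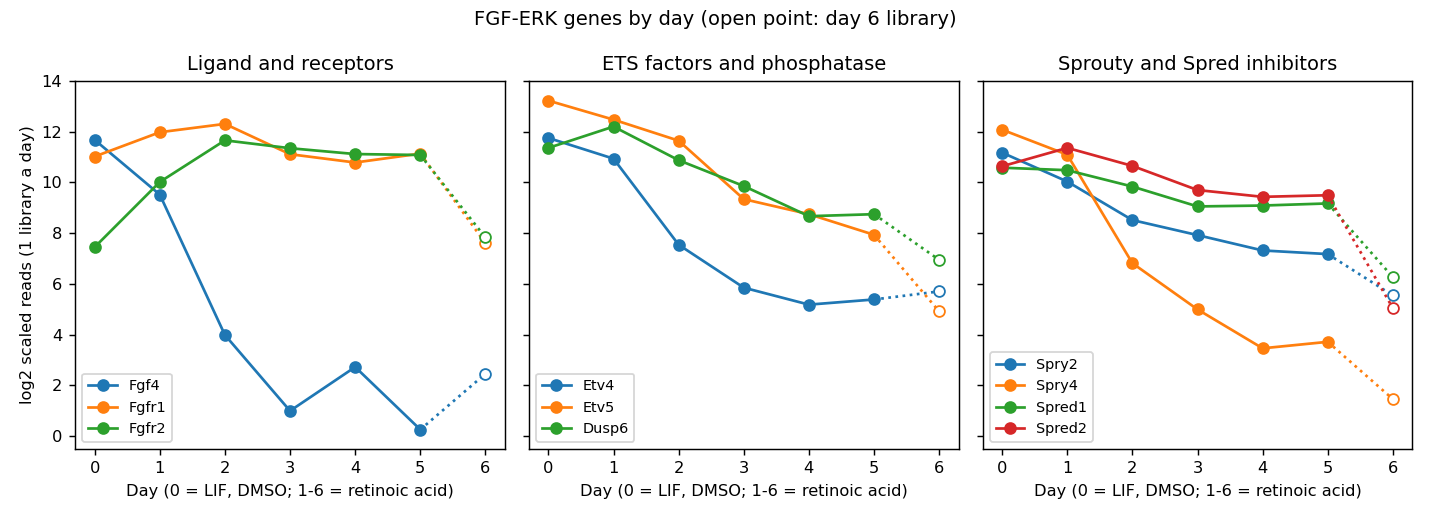
Level of each gene by day, in log2 scaled reads, with 1 point per library; open points joined by dotted lines mark the day 6 library. Fgf4, Etv4 and Spry4 lie at 5.85 or lower by day 3, while Fgfr1 stays between 10.79 and 12.31 through day 5 and Fgfr2 climbs to 11.66 by day 2.

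Over days 0 to 5 the ligand gene had the lowest slope of all 12058 symbols tested. Fgf4 (NM_010202, chromosome 7, 152047290 to 152051148, mm9, plus strand) had 1707, 427, 9, 1, 6, 1 and 2 reads on days 0 to 6. In log2 values these were 11.68, 9.52, 3.99, 0.99, 2.72, 0.26 and 2.46. Day 0 was the high library, day 1 the only other one above 9 reads, and from day 3 on the gene had no more than 6 reads. The day 1 library stood 4.46-fold below day 0 (log2 difference -2.16, 95% counting interval -2.31 to -2.003). On day 2 it stood 207-fold lower (-7.69, interval -8.82 to -6.76). On day 5 the single read left a wide interval around the difference of -11.42, -16.73 to -8.94. A value of 1 read is the lowest in each library, and no source used here tells whether it also stands for genes without reads. Fgf4 fell by 2.30 ± 0.40 log2 units per day (SE, 6 libraries, limma adjusted p = 0.00585). Over all 7 libraries its slope was -1.69, no longer the lowest, with Spry4 at -1.79 (limma adjusted p = 0.0540, within a range of 0.00302 to 0.0540 over its 13 alternatives).

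Pluripotency factor genes stood beside Fgf4 in this course. Pou5f1, which encodes Oct4, stood 1.84-fold lower on day 1 and 13.2-fold lower on day 2 than on day 0, and Sox2 stood 2.34-fold and 8.65-fold lower. Nanog, added after its values were seen, stood 6.66-fold lower on day 1 and 20.5-fold lower on day 2. The counting intervals of Fgf4 on day 2 (-8.82 to -6.76) and of Pou5f1 (-3.82 to -3.62), Sox2 (-3.29 to -2.94) and Nanog (-4.71 to -4.03) did not overlap. By its values Tdgf1, a further embryonic stem cell marker, dropped further than Fgf4, from 13.545 on day 0 (6219 reads) to 4.724 on day 2 (15 reads). With so few reads on day 2, 9 for Fgf4, the order of these genes was not resolved. The remaining markers dropped less than Fgf4 by day 2. Of the 8 embryonic stem cell markers, 7 fell over days 0 to 5 and 6 over 7 libraries (22.1% and 5.21% of all symbols). Their summed scaled reads were 29054 on day 1 and 2211 on day 5, against 79932 on day 0, and the lowest marker on day 5 was Nanog with 23 reads. Most of the day 5 sum came from Klf4 (1085 reads), the marker not called (slope -0.11). In bulk RNA, fewer stem cells and less RNA per cell cannot be told apart, and the part of either in the decline of Fgf4 was not tested.

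**Figure D2:**
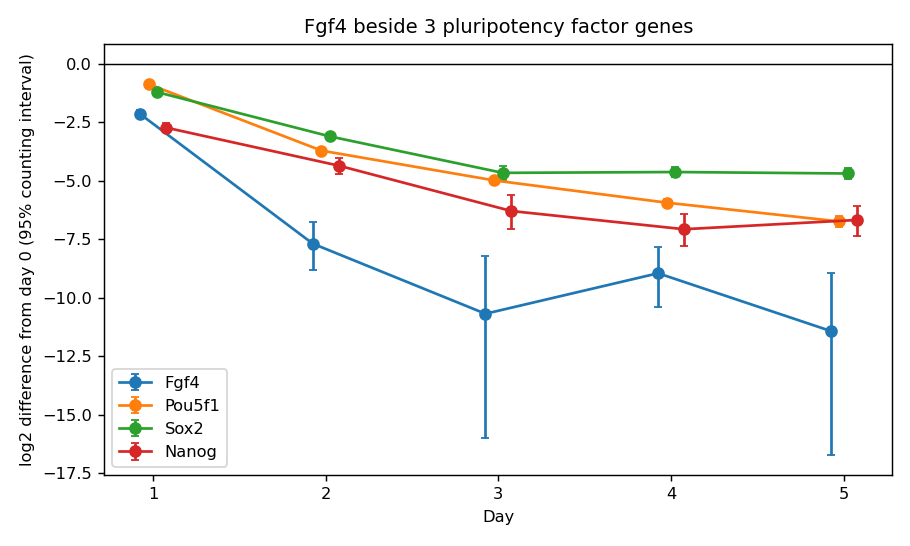
Log2 difference from day 0 of Fgf4, Pou5f1, Sox2 and Nanog on days 1 to 5, with 95% counting intervals for single libraries. Fgf4 lies at -7.69 on day 2, below the other genes plotted, and its intervals widen from day 3 on, where it has 1 to 6 reads. The marker Tdgf1, whose value dropped further by day 2, to 15 reads, is not plotted.

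Both receptor genes stood higher in the first days, and their balance changed. Fgfr2 (NM_010207, chromosome 7, 137305964 to 137410322, mm9, minus strand), whose product binds a wide set of FGFs, had log2 values of 7.45, 10.02, 11.66, 11.35, 11.12, 11.08 and 7.83 on days 0 to 6. Days 0 and 6 were the low libraries, and days 2 to 5 were the high ones. The day 1 level was 5.94-fold that of day 0 (log2 difference 2.57, interval 2.25 to 2.90). On day 2 it was 18.5-fold (4.21, interval 3.91 to 4.53), and on day 5 still 12.4-fold (3.63, interval 3.33 to 3.95). A straight line over days 0 to 5 gave a slope of 0.60 ± 0.23 (SE, limma adjusted p = 0.0660). Of its 14 alternatives 1 called it: without the day 2 library the slope was 0.66 (limma adjusted p = 0.0283, range over alternatives 0.0283 to 0.851).

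Fgfr1, the main FGF receptor gene of undifferentiated stem cells (NM_010206, chromosome 8, 26629243 to 26686186, mm9, plus strand), had log2 values of 11.02, 11.98, 12.31, 11.11, 10.79, 11.14 and 7.61 on days 0 to 6. It peaked on day 2 and was near its day 0 level from day 3 to day 5. Day 2 stood 2.44-fold above day 0 (1.29, interval 1.19 to 1.39), and day 5 differed by 0.11 (interval 0.0064 to 0.22). Its slope was -0.12 ± 0.12 (SE, limma adjusted p = 0.429). The other transcript rows of Fgfr1, which share most of their reads with it, differed from these values by -0.17 to -0.0054 log2 units.

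Per transcript length, Fgfr2 stood at 0.081 of Fgfr1 on day 0 (95% counting interval 0.065 to 0.10). A day later it was 0.25 and on day 2 it was 0.61. Days 3 and 4 had ratios of 1.14 and 1.21, and day 5 one of 0.93 (interval 0.87 to 0.99). From day 3 to day 5 the receptor genes thus had levels within 1.21-fold of each other. The level of both receptor genes added together went from 448 scaled reads per kb at the start through 1004 on day 1 to 1632 on day 2, and was 864 on day 5. On day 6 the ratio was 1.13 (interval 0.81 to 1.57) with 83 reads of Fgfr2 and 71 of Fgfr1.

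The rows of Fgfr2 did not move alike from day 0. The shorter row (NM_201601) had 45 reads and the longer row 91 on day 0, a gap of 50.6% of the longer row's reads. On days 1 to 5 that gap was 13.3%, 8.81%, 7.78%, 7.42% and 7.77%. The shorter row stood 23.2-fold above day 0 on day 5 (4.53, interval 4.11 to 4.99), whose interval did not overlap that of the longer row. The rows share most reads, so the gap is not a count of 1 isoform.

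**Figure D3:**
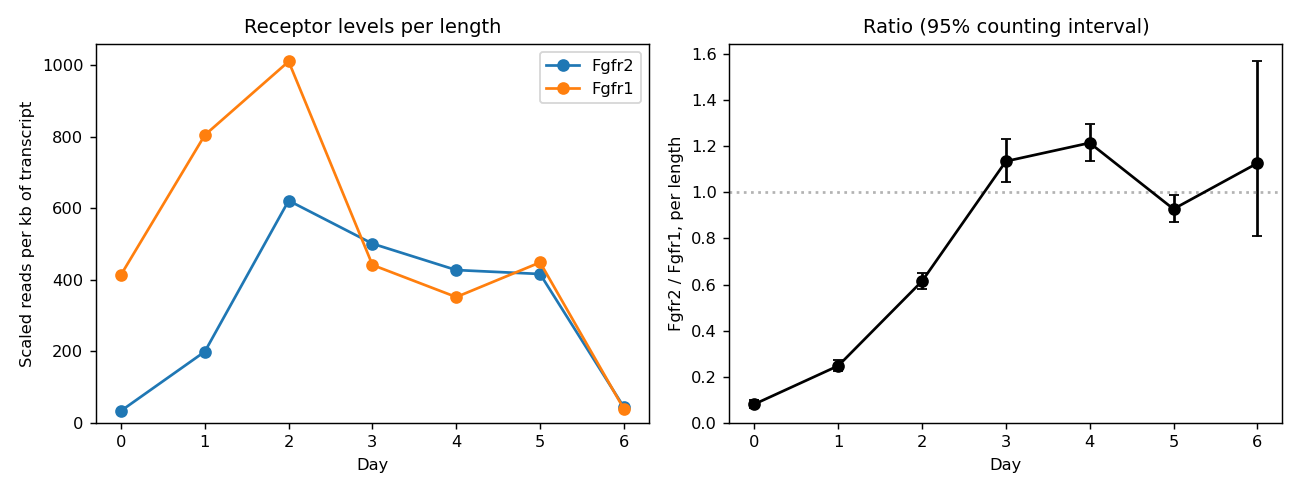
Left, scaled reads per kb of transcript for Fgfr2 and Fgfr1 by day; right, the ratio of Fgfr2 to Fgfr1 per length with 95% counting intervals. The ratio is 0.081 on day 0 and 1.14 on day 3, and both receptor genes are low in the day 6 library.

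Promoter sequences are shown for Fgf4, Etv5 and Dusp6, each of which fell over days 0 to 5, and for Fgfr2, the gene that stood higher. RefSeq promoters (GRCm38.p6) matched 7 of the 10 members by symbol. Each line holds the 250 bases before the annotated start, 5′ to 3′ on the gene's strand: chr7:144861136-144861385, plus strand, for Fgf4; chr16:22439571-22439820, minus strand, for Etv5, the first of its 2 listed starts; chr10:99262981-99263230, plus strand, for Dusp6; and chr7:130266809-130267058, minus strand, for Fgfr2. Capitals mark GC boxes (GGGCGG, a motif of Sp factors) and CCAAT boxes (CCAAT, a motif of NF-Y) on either strand.
Fgf4: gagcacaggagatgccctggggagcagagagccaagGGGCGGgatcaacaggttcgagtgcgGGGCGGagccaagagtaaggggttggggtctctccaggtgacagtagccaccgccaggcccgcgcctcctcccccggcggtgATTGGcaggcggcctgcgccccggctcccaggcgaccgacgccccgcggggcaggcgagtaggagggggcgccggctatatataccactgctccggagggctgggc
Etv5: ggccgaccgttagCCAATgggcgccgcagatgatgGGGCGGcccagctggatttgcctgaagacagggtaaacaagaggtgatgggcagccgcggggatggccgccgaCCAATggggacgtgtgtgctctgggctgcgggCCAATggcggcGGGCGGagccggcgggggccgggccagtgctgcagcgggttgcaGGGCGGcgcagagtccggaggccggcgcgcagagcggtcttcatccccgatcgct
Dusp6: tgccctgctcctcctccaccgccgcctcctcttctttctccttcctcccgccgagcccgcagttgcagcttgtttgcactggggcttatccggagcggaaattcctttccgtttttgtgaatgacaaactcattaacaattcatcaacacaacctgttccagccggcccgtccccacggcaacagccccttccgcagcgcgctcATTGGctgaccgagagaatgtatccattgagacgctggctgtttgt
Fgfr2: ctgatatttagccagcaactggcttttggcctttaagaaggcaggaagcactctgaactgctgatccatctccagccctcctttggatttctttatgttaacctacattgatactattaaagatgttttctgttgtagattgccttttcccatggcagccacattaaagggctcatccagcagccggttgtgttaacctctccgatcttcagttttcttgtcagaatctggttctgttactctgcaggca

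Fgf4 held 2 GC boxes and 1 CCAAT box, the first Etv5 start 3 of each, and Dusp6 1 CCAAT box. Of 32851 listed promoters 32.7% held a GC box and 33.8% a CCAAT box. No match to either motif was in the Fgfr2 window. The ETS motif CCGGAA (12% of promoters), the nuclear receptor motif AGGTCA (14%) and TATAAA (12.4%) matched in none of the 8 windows. These were the windows of the 7 members, searched on both strands. Only these exact letters were searched for. The shorter run GGAA is present in the Dusp6 and Fgfr2 windows shown here and in windows not shown, among them that of Spred2. The run TATATA is present near the start in the Fgf4 window. TGACG, part of the cyclic AMP response element (17.8% of promoters), matched once, in Spred2. The GC content was 71.2% in Fgf4 and in the first Etv5 window, 56.4% in Dusp6 and 44% in Fgfr2. A match is a run of letters and not a bound site, and the windows leave out enhancers.

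The ETS factor genes fell from the highest levels of the group. Per length, Etv5 and Etv4 were the most abundant members on day 0, at 2503 and 1471 scaled reads per kb. Etv5 (NM_023794, chromosome 16, 22381385 to 22439643, mm9, minus strand) had log2 values of 13.23, 12.48, 11.65, 9.34, 8.75, 7.94 and 4.92 on days 0 to 6, lower in each library than in the one before. It stood 2.99-fold below day 0 on day 2 and 39.2-fold below on day 5 (-5.29, interval -5.50 to -5.09). The widest daily step up to day 5 was day 3 against day 2, at -2.30 (interval -2.48 to -2.13). Etv5 fell by 1.14 ± 0.089 per day (SE, limma adjusted p = 0.00192).

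Etv4 (NM_008815, chromosome 11, 101631055 to 101646624, mm9, minus strand) had its widest step up to day 5 a day before that of Etv5. Its log2 values were 11.75, 10.94, 7.55, 5.85, 5.18, 5.39 and 5.71 on days 0 to 6. Days 3 to 6 were low, with 19 to 35 reads, and did not go lower on day 6. Day 2 stood 10.5-fold below day 1 (-3.39, interval -3.70 to -3.11), while Etv5 stood 1.78-fold lower in that step (-0.83, interval -0.91 to -0.75). On day 5 Etv4 stood 82.6-fold below day 0 (-6.37, interval -6.89 to -5.89). It fell by 1.45 ± 0.21 per day (SE, limma adjusted p = 0.00396). The third gene of this ETS subfamily, Etv1, was at 9.16 on day 5, against 9.28 on day 0, with a slope of -0.0052 (limma adjusted p = 0.975).

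Among the feedback genes, Spry4 and Spry2 were low early, while Dusp6 and Spred2 first stood higher. Spry4 (NM_011898, chromosome 18, 38745918 to 38760922, mm9, minus strand), a Sprouty inhibitor of receptor-to-Ras signalling, had 2256, 1270, 64, 16, 10, 11 and 1 reads on days 0 to 6. Days 0 and 1 were high, and each later library had no more than 64 reads. Day 2 stood 19.4-fold below day 1 (-4.28, interval -4.66 to -3.92), and day 5 stood 330-fold below day 0 (-8.36, interval -9.37 to -7.52). Spry4 fell by 1.90 ± 0.25 per day (SE, limma adjusted p = 0.00307).

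Spry2 (NM_011897, chromosome 14, 106291163 to 106296036, mm9, minus strand), its relative, had log2 values of 11.18, 10.04, 8.52, 7.93, 7.32, 7.18 and 5.54 on days 0 to 6, each library lower than the one before. The decline was more gradual than that of Spry4. Day 2 stood 6.32-fold and day 5 16.0-fold below day 0 (-4.00, interval -4.28 to -3.73). Spry2 fell by 0.82 ± 0.098 per day (SE, limma adjusted p = 0.00287). Of the other Sprouty genes, Spry1 was at 8.85 on day 5, against 8.31 on day 0, with a slope of 0.12 (limma adjusted p = 0.0495). That call was made in 3 of its 13 alternatives. Spry3 rose by 0.73 per day over days 0 to 5 (limma adjusted p = 0.00854) and had 107 reads on day 5, against 5 on day 0; over 7 libraries it was not called (adjusted p = 0.282, range over alternatives 0.00446 to 0.282).

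Dusp6 (NM_026268, chromosome 10, 98725864 to 98730122, mm9, plus strand), a phosphatase that removes the activating phosphates of ERK, had log2 values of 11.36, 12.20, 10.88, 9.86, 8.67, 8.75 and 6.95 on days 0 to 6. Day 1 was the highest library. It stood 1.79-fold above day 0 on day 1 (0.84, interval 0.75 to 0.93) and 6.12-fold below on day 5 (-2.61, interval -2.79 to -2.45). Dusp6 fell by 0.71 ± 0.12 per day (SE, limma adjusted p = 0.00589). Dusp4, a nuclear phosphatase gene, was likewise highest on day 1, at 2.34-fold its day 0 level, with a slope of -0.23 (limma adjusted p = 0.174). Dusp9, another ERK phosphatase gene, stood at 4.88-fold its day 0 level on day 1 and 3.74-fold on day 5, with a slope of 0.28 (limma adjusted p = 0.198).

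The Spred genes, whose products hold back Ras activation through neurofibromin, had the shallowest called slopes. Spred2 (NM_033523, chromosome 11, 19824444 to 19922600, mm9, plus strand) had log2 values of 10.64, 11.37, 10.65, 9.70, 9.43, 9.50 and 5.04 on days 0 to 6. It was highest on day 1, 1.65-fold above day 0 (0.73, interval 0.60 to 0.85), and stood 2.21-fold below on day 5 (-1.14, interval -1.30 to -0.99). Its slope was -0.36 ± 0.091 (SE, limma adjusted p = 0.0198). The call was lost over 7 libraries (slope -0.78, adjusted p = 0.0716) and without the day 4 library (adjusted p = 0.0635), with a range of 0.00956 to 0.0716 over its 14 alternatives.

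Spred1 (NM_033524, chromosome 2, 116947185 to 117005072, mm9, plus strand) had log2 values of 10.58, 10.48, 9.84, 9.06, 9.09, 9.17 and 6.26 on days 0 to 6. Days 0 and 1 lay close together and days 3 to 5 formed a lower level. Day 1 differed from day 0 by -0.098 (interval -0.24 to 0.044), a difference not detectable at this depth. Day 5 stood 2.66-fold below day 0 (-1.41, interval -1.57 to -1.24). Spred1 fell by 0.34 ± 0.067 per day (SE, limma adjusted p = 0.00840).

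**Figure D4:**
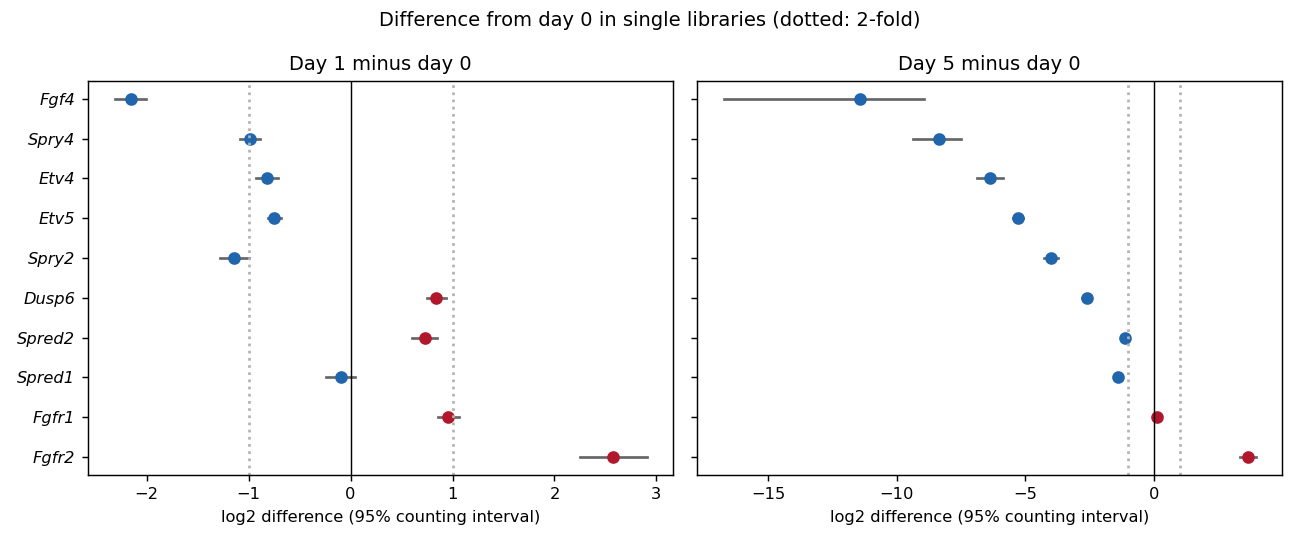
Log2 difference from day 0 of each gene on day 1 (left) and day 5 (right), with bars for the 95% counting interval of 2 single libraries and dotted lines at 2-fold. On day 1 Dusp6, Spred2, Fgfr1 and Fgfr2 lie above 0; on day 5 8 genes lie below -1 and Fgfr2 lies at 3.63.

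By day 5 the order of levels per length had turned. On day 0 it ran from Etv5 and Etv4 through Spry2 (1109 scaled reads per kb), Fgf4 (1082), Spry4 (944), Dusp6 (941), Spred2 (554), Spred1 (510) and Fgfr1 (414) to Fgfr2 (33.5). On day 5 the receptor genes led, Fgfr1 at 448 and Fgfr2 at 416, followed by Spred2 (251), Spred1 (192), Dusp6 (154), Spry2 (69.3), Etv5 (63.9), Etv4 (17.8), Spry4 (2.86) and Fgf4 (0.39). Without replicates the spread of these levels between cultures is not known.

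Across the 6 libraries of days 0 to 5, Pearson correlations among the 8 falling genes ran from 0.806 (Fgf4 with Spred2) to 0.998 (Etv4 with Spry4). Those of Fgfr2 with the falling genes were all negative, from -0.862 with Spry2 to -0.434 with Spred2. The points share libraries and scaling, and genes that change in 1 direction correlate over so few days. Over all 7 libraries, the symbols with the course most like that of Fgf4 were Sox15 (Pearson r = 0.994), Shq1 (0.994), Lpar5 (0.991), Apobec3 (0.986) and 1700020C11Rik (0.986). For Etv5 they were Bub1b (0.997), Daxx (0.996), Gbx2 (0.996), Abcg1 (0.995) and Ceacam1 (0.995), and for Fgfr1 Zfp346 (0.999), Nuak2 (0.998), Unc119b (0.997), Gramd4 (0.997) and Ski (0.995). The day 6 library enters these values, and r does not measure the size of a change. Each gene named for Etv5 moved less than Etv5 by day 5. Bub1b went from 12.42 on day 0 to 10.87 on day 5, and Etv5 from 13.23 to 7.94.

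Among other genes of the pathway, taken from 6 lists, more rose than fell over days 0 to 5. In that span 14 of the 85 listed genes passing the read filter fell and 32 rose (background 22.1% and 26%), with a median slope of 0.12, against 0.013 over all symbols tested. Over 7 libraries limma called 2 falling (Rps6ka1 and Myc) and 0 rising (15 and 2 at an unadjusted p under 0.05).

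Of 21 FGF ligand genes listed, 5 other than Fgf4 were in the table and 4 were kept. Fgf17, a relative of Fgf8, fell by 0.90 per day (limma adjusted p = 0.0199) and had 8 reads on day 5, against 196 on day 0; the call was lost over 7 libraries and without the day 0 library (range 0.0128 to 0.126 over alternatives). Fgf10, a mesenchymal ligand gene, stood 5.04-fold above day 0 on day 2 (slope 0.41, limma adjusted p = 0.242). Fgf16 had a slope of -0.097 (limma adjusted p = 0.466).

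Receptor and heparan sulfate genes moved upward. Of 21 kept, limma called 16 rising (76.2%, against 26% of all symbols) and 0 falling (22.1% of all symbols) over days 0 to 5. At an unadjusted p under 0.05 the limma counts were 18 and 0, and 0 fell with voom weights. Over 7 libraries it called 0 in either direction (2.56% rising and 5.21% falling over all symbols), also at an unadjusted p under 0.05. The glypican genes Gpc3 (slope 1.24) and Gpc6 (slope 1.23), which encode cell-surface heparan sulfate carriers, stood 48.3-fold and 43.1-fold above day 0 on day 5; without the day 0 library Gpc3 was not called (limma adjusted p = 0.0534, range over alternatives 0.00487 to 0.296). Klb, which encodes the co-receptor beta-Klotho, had a slope of 1.12 (limma adjusted p = 0.0347) that was called in 8 of its 13 alternatives. The syndecan gene Sdc3 rose by 0.85 per day. Of the remaining receptor genes, named after their values were seen, Fgfr3 rose by 0.74 per day and stood 9.37-fold above day 0 on day 5, Fgfrl1, a receptor-like gene without a kinase, rose by 0.50, and Fgfr4 had a slope of 0.32 (limma adjusted p = 0.0702). The sulfotransferase gene Hs6st1 (slope 0.16, adjusted p = 0.264) and Extl3 (0.079, adjusted p = 0.121), the abundant genes not called, had negative slopes over 7 libraries.

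Among adaptors and Ras activators 5 of 14 rose (35.7%, against 26% of all symbols) and 2 fell (14.3%, against 22.1%). The adaptor genes Gab2 (slope 0.72) and Frs2 (0.30), which links FGF receptors to Grb2, rose, as did the exchange factor gene Sos2 (0.56). Over 7 libraries Frs2 had a slope of -0.21, and Sos2 was called in 11 of its 14 alternatives, not without day 0 or day 4. Rasgrp2, another exchange factor gene, fell by 0.74 per day (limma adjusted p = 0.0401), a call made in 8 of its 13 alternatives. In the kinase core 4 of 15 fell (26.7%, against 22.1% of all symbols) and 2 rose (13.3%, against 26%), with a median slope of -0.037. Rps6ka1, a kinase downstream of ERK, fell by 0.29 per day and was called in all 14 alternatives (slopes -0.41 to -0.25), and the scaffold gene Ksr1 by 0.29 (limma adjusted p = 0.0245, 9 of 13 alternatives). Shoc2 (0.25) and Rps6ka2 (0.21) rose, called in 13 and 9 of 14 alternatives. Over 7 libraries their slopes were -0.11 and -0.17, and Rps6ka2 was also not called with the length trend removed or without day 0, 4 or 5. The Ras gene Nras had a slope of -0.037 (limma adjusted p = 0.372).

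Of 15 ERK-responsive genes outside the members, 4 fell (26.7%, against 22.1% of all symbols) and 2 rose (13.3%, against 26%). Myc fell by 0.67 per day, standing 9.05-fold below day 0 on day 5, and was called in all 14 alternatives, and the immediate early gene Ier2 fell by 0.47. Fos rose by 0.57 per day, with 170 reads on day 5 against 24 on day 0, and Bhlhe40 rose by 0.44 (10 of 14 alternatives, not without day 0, 4 or 5). Egr1 and Ccnd1 were chosen after their values were seen. The immediate early gene Egr1 stood 3.74-fold below day 0 on day 1 and 1.35-fold below on day 5. The cyclin gene Ccnd1 stood 13.6-fold below on day 2 and 2.40-fold below on day 5. Mcl1 (slope -0.049, adjusted p = 0.640) and Srf (-0.071, adjusted p = 0.337) were not called. Of 16 other inhibitor genes kept, 7 rose (43.8%, against 26% of all symbols) and 3 fell (18.8%, against 22.1%). Errfi1, an inhibitor of EGF receptors, rose by 0.59 per day (10 of 14 alternatives, not without day 0, 1 or 4), and Cblb, a ubiquitin ligase gene, by 0.27 (13 of 14). Il17rd, also called Sef, a membrane inhibitor of FGF signalling, fell by 0.37 per day (limma adjusted p = 0.0400, 9 of 14 alternatives). It first stood higher, 1.85-fold above day 0 on day 1 and 1.52-fold on day 2, and was 2.14-fold below on day 5.

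**Figure D5:**
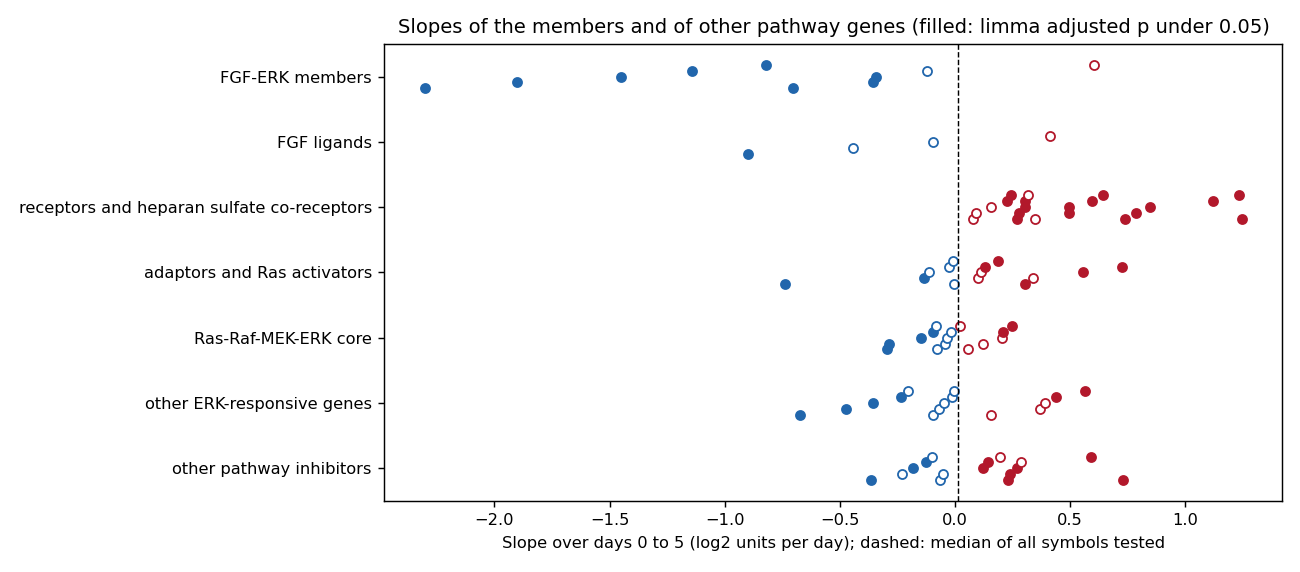
Slope over days 0 to 5 in log2 units per day for the 10 members and for the other pathway genes by list; filled points were called by limma at an adjusted p under 0.05, and the dashed line is the median of all symbols tested (0.013). Of the members 8 are filled and negative, while 16 of the 21 receptor and heparan sulfate genes are filled and positive.

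Markers of differentiated cells moved with these courses. Among the 9 extraembryonic endoderm markers measured, 6 rose over days 0 to 5 (66.7%, against 26% of all symbols). Over 7 libraries limma called 0 rising, also at an unadjusted p under 0.05. Their summed scaled reads were 7937 on day 0, 12527 on day 1 and 89155 on day 2, highest at 247633 on day 3, then 217058, 139542 and 5086 on days 4, 5 and 6. Up to day 5 most of each sum came from the matrix genes Lama1 and Col4a1, at log2 16.74 and 16.77 on day 3. The sum thus says little of the other markers. Amn (slope -0.078), Sox7 (0.44) and Sox17 (0.74) were not called. Each was highest on day 3, where a straight line fits poorly. From day 0 to day 3 Amn went from 6.43 to 8.06, Sox7 from 6.33 to 10.60 and Sox17 from 4.11 to 9.85. On day 5 Sox7 stood 4.99-fold and Sox17 14.45-fold above day 0, and Amn 1.42-fold below. Of the 9 markers, 8 stood at least 2-fold above day 0 on day 5 (25.9% of all symbols). The endoderm factor gene Gata6 stood 17.1-fold above day 0 on day 1 and 55.0-fold on day 5. Of 8 mesenchyme or fibroblast markers 7 rose over days 0 to 5 and 3 over 7 libraries (26% and 2.56% of all symbols), with a summed level of 52642 on day 5 against 4729 on day 0. The marker not called, Thy1 (slope -0.40), stood 9.56-fold below day 0 on day 5. Of 8 neural markers 5 rose over days 0 to 5 and 2 over 7 libraries (26% and 2.56% of all symbols), with 10511 on day 5 against 3090 on day 0. Sox1 (slope -0.44, 2.39-fold below day 0 on day 5), Pax6 (-0.068) and Tubb3 (0.031) were not called. Sox1 was highest on day 1, at 8.86 (269 reads) against 6.56 on day 0 (49 reads). Pax6 was highest on day 2, at 9.60 (440 reads) against 7.71 on day 0 (109 reads). The lowest markers on day 0 were Foxa2 with 7 reads, Acta2 with 16 and Neurog1 with 3. The part of each lineage in the courses of the receptor, target and feedback genes was not tested.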

How the data were processed

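RNA sequencing of 7 libraries, 1 per day, gave the deposited table. Per the labels' protocols, ribosomal RNA was depleted and stranded libraries were made; BWA 0.7.3 and mm9 are named in the submitters' processing notes. The deposited values are log2 values: in each library, every value up to 1000 reads was a whole number of reads (within 0.05) times 1 factor, so the authors scaled by library and not by length. Whole reads were recovered by dividing by that factor.

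Per symbol the row with the highest mean was used, and 12058 of 12071 symbols with a mean of at least 10 reads were kept. Slopes on day came from a linear fit over days 0 to 5 (limma 3.58.1, R 4.3.3; 4 residual degrees of freedom; Benjamini-Hochberg over all symbols kept). This fit was run on simulated data with known slopes. Differences of single days from day 0 are sizes only, with 95% exact binomial (Clopper-Pearson) intervals, which cover counting error only. Alternatives were all 7 libraries, other filters and scalings, voom weights, the longest transcript and leaving out each day. Besides the members, the text names from each pathway list up to 4 called genes of largest slope and 2 uncalled genes of highest mean, plus 8 fixed examples, of which Fgf5 was not analysed here. One gene that this rule names is not reported here. The members, lists and the choice of days 0 to 5 were made with earlier results of these data known.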

Additional observations from a re-analysis of the deposited data

How the results depend on the processing

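No paired analysis was possible because each day had 1 library. The 8 members called falling remained 8 with no filter, both other scalings, the length trend removed, voom weights and the longest transcript. A filter at the 40th percentile kept 6 members and called 4 falling. Leaving out 1 day gave 7 (without day 4) to 8 members falling and 0 to 1 rising (1 without day 2, Fgfr2). On day 1, 1 member stood at least 4-fold lower, against 2 at 2-fold. Over all symbols, 628 fell and 309 rose with 7 libraries, against 2662 and 3134 over days 0 to 5, and 1858 rose with the filter at the 40th percentile. Leaving out 1 day gave 1521 to 2677 falling and 1756 to 3380 rising. The share of rising among calls was 54.1%, against 41.6% with median-centring (2543 rising, 3572 falling), 43.5% with quantile normalization (2581 and 3352) and 33% with 7 libraries. Before centring, the median difference of all symbols from day 0 was 0.11 on day 1 and 0.13 on days 2 and 5. Median-centring subtracts the median level of each library instead, which moves every slope alike. It took that of Fgf4 from -2.2999 to -2.3484. Of the listed pathway genes 2 fell and 0 rose with 7 libraries; leaving out 1 day gave 5 to 15 falling and 21 to 37 rising.

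Slopes changed sign with 7 libraries for Fgf10 (-0.15), Fgf16 (0.16), Hs6st1 (-0.40), Extl3 (-0.50), Frs2 (-0.21), Ptpn11 (-0.31), Plcg1 (-0.22), Shoc2 (-0.11), Rps6ka2 (-0.17), Dusp9 (-0.059) and Spry1 (-0.13). They did so for Extl3 with the length trend removed (-0.021) and for Etv1 with voom weights (0.018). Leaving out 1 day gave ranges that crossed 0 for Fgf16 (-0.24 to 0.054), Hs6st1 (-0.0068 to 0.25), Nras (-0.048 to 0.0011), Mcl1 (-0.20 to 0.023), Srf (-0.12 to 0.0079), Dusp9 (-0.075 to 0.50) and Etv1 (-0.077 to 0.095). The cause was not tested. Depth limits Fgf4 and Spry4 from day 3 on, where they had at most 16 reads.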
